A study of Mus musculus with 6 samples.

Results

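The integrin chains examined here are 7 genes, Itgal, Itgb2, Itga4, Itgb1, Itga6, Itgav and Itgae, taken by their symbols from the 48397 rows of the deposited count table. They were followed in 6 RNA-Seq libraries of stage 0 iNKT cells, the first thymic iNKT stage after positive selection. Of these, 3 came from wild-type BALB/c mice and 3 from SKG mice, which have the BALB/c background and carry a hypomorphic mutation of Zap70, the kinase that relays signals from the TCR. All mice were 8 to 10 weeks old, and a library was made from about 1000 cells obtained by pooling 3 thymi, so each replicate is a pool of animals. The sort kept CD24+ CD69+ cells that bound the CD1d tetramer, were CD44- and CD8- and had little or no CD4. The SKG mutation is present in every cell of the animal and not in iNKT cells alone. The comparison asks which transcripts differ when the TCR signals more weakly at this stage.

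Each integrin is a pair of an α and a β chain that spans the membrane and binds ligands on other cells or in the matrix. TCR and chemokine signals switch integrins to a high-affinity state from inside the cell, with talin and kindlin binding the short tail of the β chain. LFA-1, made of the Itgal and Itgb2 products, binds the ICAM proteins and holds T cells to antigen-presenting cells. VLA-4, made of the Itga4 and Itgb1 products, binds VCAM-1 and fibronectin, the Itga6 product with the β1 chain binds laminin, the Itgav product pairs with several β chains to bind vitronectin and fibronectin, and the Itgae product (CD103) pairs with the β7 chain to bind E-cadherin.

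The tail segments are shown because they hold motifs shared among the α chains and, separately, among the β chains. These segments of the counted mRNAs also encode the sites on which inside-out activation acts. They are coding bases from the GENCODE transcripts of GRCm38, with 15 bases on either side of the motifs or fewer where the coding sequence ends. In the α chains the capitals mark the codons of the conserved GFFKR motif next to the membrane. In the β chains they mark the codons of both Asn-Pro-X-Tyr/Phe motifs, the talin and kindlin sites. All lie on the plus strand, and each segment is split by an intron.
Itgal, chr7:127330228-127333484: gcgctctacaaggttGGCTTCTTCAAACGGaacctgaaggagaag
Itga4, chr2:79325683-79326552: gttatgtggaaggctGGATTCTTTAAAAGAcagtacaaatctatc
Itga6, chr2:71849495-71853566: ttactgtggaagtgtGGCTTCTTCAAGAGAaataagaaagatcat
Itgav, chr2:83802991-83803272: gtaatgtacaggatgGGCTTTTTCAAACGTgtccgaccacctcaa
Itgae, chr11:73145640-73147083: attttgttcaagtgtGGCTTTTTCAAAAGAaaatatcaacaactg
Itgb2, chr10:77564793-77565237: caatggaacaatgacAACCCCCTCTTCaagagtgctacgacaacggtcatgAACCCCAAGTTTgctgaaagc
Itgb1, chr8:128726178-128732085: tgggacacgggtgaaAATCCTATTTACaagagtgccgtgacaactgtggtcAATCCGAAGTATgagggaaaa

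The motif was found in all 5 α chains, whose 15 motif bases were from 66.7% to 86.7% identical between chains. Since these bases encode the same residues in each α chain, they differ by synonymous codons alone. From the first to the last motif base, Itgb1 and Itgb2 were identical at 33 of 48 positions. Both β chains end 3 residues after the second motif.

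The libraries held from 37176544 to 43115544 reads on genes, and between 10835 and 14791 genes had at least 10 reads. The fewest genes were found in SKG replicate 3 and, among the BALB/c libraries, in replicate 1 with 11415. All 12 marker genes of T and iNKT cells fixed for the check, among them Cd3e, Trac, Zbtb16 and Egr2, had at least 10 reads in every library. Cd8a and Cd8b1, whose proteins the sort excluded, were also read in every library (592 to 4985 reads). Values below are in CPM, read counts scaled for library size after TMM normalization, and a group value is the mean ± SD of 3 libraries. In such bulk samples, fewer cells with a transcript and less of it per cell cannot be told apart.

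Among these chains, the LFA-1 transcripts predominated in stage 0 iNKT cells. Per kilobase of annotated exon, the mean level over the 6 libraries was 335 ± 41.6 CPM per kb for Itgb2 and 148 ± 32.2 for Itgal, and 99.4% and 97.9% of the tested genes had a lower level. Itgb1 followed at 63.6 ± 18.1 CPM per kb and Itga6 at 8.18 ± 3.81. On this scale the ranges over libraries of these 4 chains did not overlap, but per coding kilobase the lowest Itgb2 library (380.0) was under the highest Itgal library (385). Itgav followed at 2.89 ± 1.80 CPM per kb, with a highest library (5.23) above the lowest of Itga6 (3.33). Itga4 at 2.28 ± 0.751 CPM per kb could not be placed against Itgav, since their ranges overlapped and their order turned when the coding length replaced the exon length (9.93 against 10.3 CPM per kb). Itgae stood last at 0.0566 ± 0.0976 CPM per kb. LFA-1 transcripts made up from 82.6% to 90.0% of the summed per-length level of the 7 chains in every library.

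**Figure D1:**
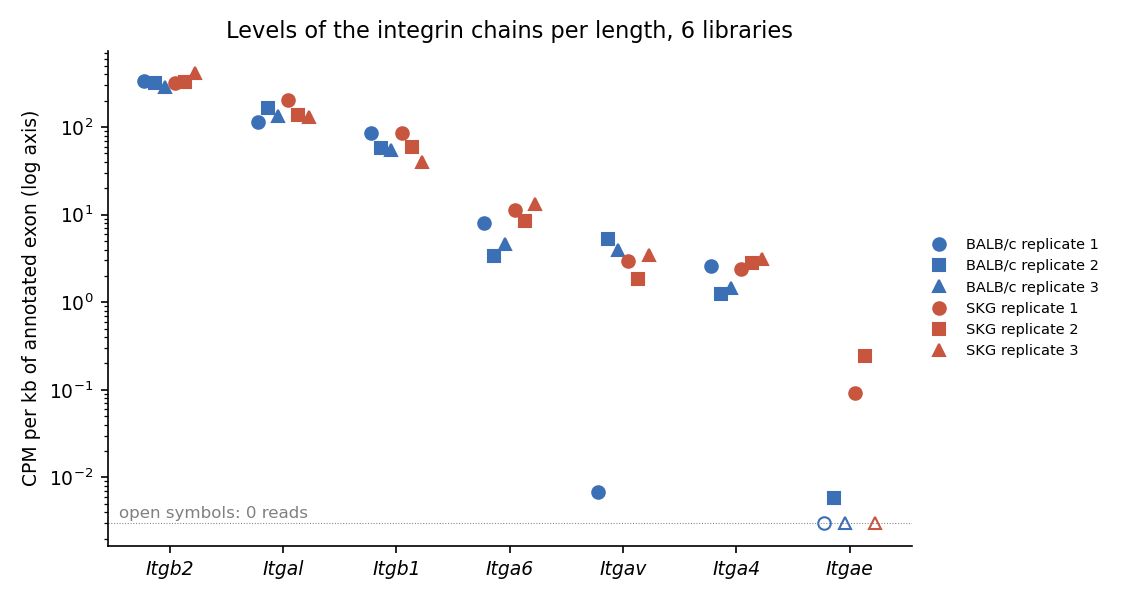
Level of each integrin chain in CPM per kilobase of annotated exon on a log axis, with 1 symbol per library (blue BALB/c, red SKG) and open symbols at the base for 0 reads. Itgb2, Itgal, Itgb1 and Itga6 form separate steps from 335 down to 8.18 CPM per kb of exon (Itgb2 and Itgal overlap per coding kilobase), and the BALB/c replicate 1 point of Itgav lies far under its other libraries.

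Between the genotypes, no chain was called. Of the 7 genes, 6 passed the filter on low counts, and 0 of these had an FDR under 0.1 with a fold change of at least 1.5 in edgeR's quasi-likelihood test, against 0 of all 12312 genes tested (0%). At an unadjusted p under 0.05 there was 1 chain, Itga6, where the share over all genes was 5.45%. It was also the 1 chain whose SKG and BALB/c libraries did not overlap, which held for 13.9% of all genes. DESeq2, which called 2.58% of the genes it tested, called 0 of the 7 chains, and limma-voom called 0 of 6. The median log2 fold change (SKG over BALB/c) of the 6 tested chains was 0.18, beside -0.02 over all genes. Summed over the 7 chains, the level was 2248, 2391 and 2077 CPM for BALB/c (replicates 1 to 3) and 2838, 2294 and 2479 CPM for SKG. These sums overlapped between the genotypes, with a mean difference of 0.18 on the log2 scale (two-sided exact permutation test, p = 0.2, where 3 libraries against 3 allow no p under 0.1). Without SKG replicate 1 the difference was 0.09.

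**Figure D2:**
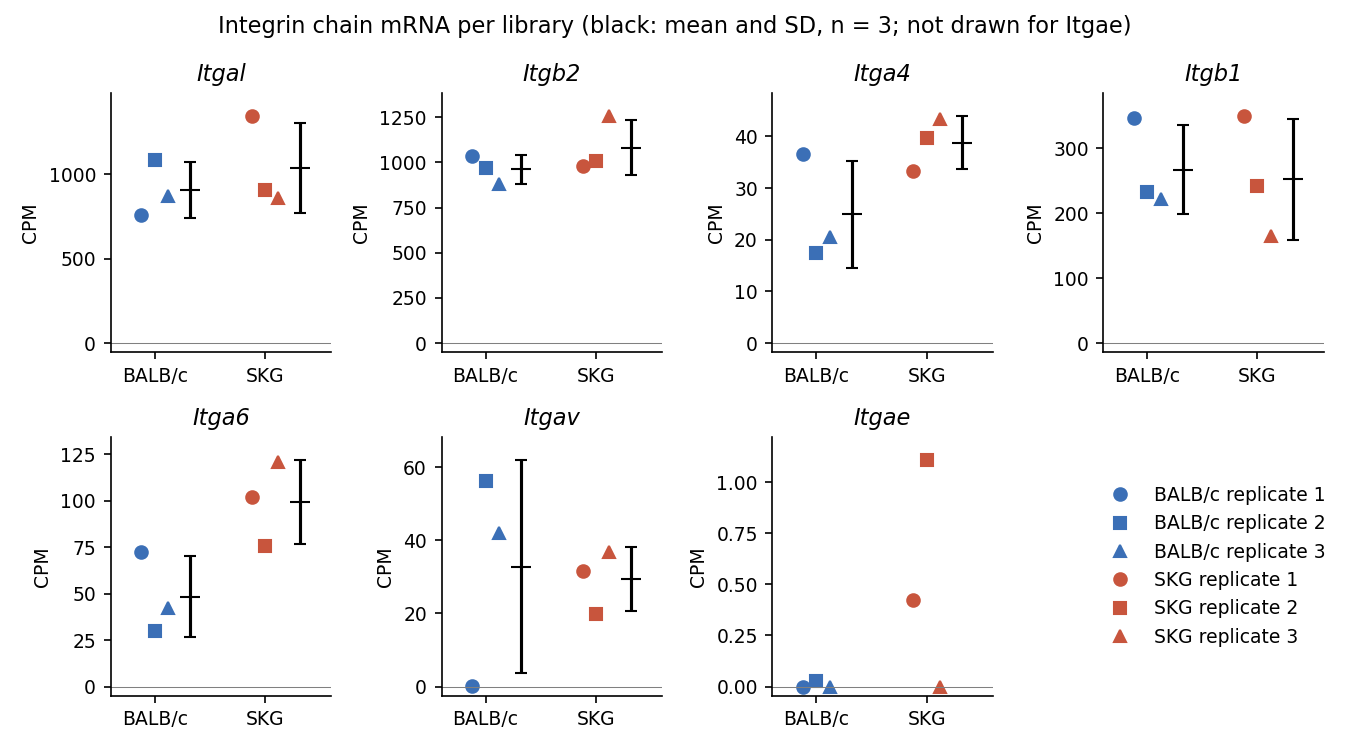
CPM of each chain in every library on linear axes that include 0, with colored symbols for the 3 BALB/c (blue) and 3 SKG (red) libraries and a black bar for the mean and SD, left out for Itgae. Only for Itga6 do the red symbols all lie above the blue ones, from 75.6 CPM upward against at most 72.4 CPM, and the axis of Itgae ends near 1 CPM.

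The α chain of LFA-1, Itgal (chromosome 7, 127296260 to 127335138), was read 31209, 40251 and 39402 times in BALB/c (replicates 1 to 3) and 54077, 35258 and 31019 times in the SKG replicates. This gave 905 ± 167 CPM (SD, n = 3) in BALB/c and 1036 ± 267 CPM (SD, n = 3) in SKG. SKG replicate 1 was the highest of the 6 and the other SKG libraries lay within the BALB/c range. The log2 fold change was 0.19 ± 0.22 (SE), with a 95% interval from -0.34 to 0.73 and an edgeR adjusted p of 0.991. Without SKG replicate 1 it was -0.04, so its sign rested on that library.

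Itgb2 (chromosome 10, 77530252 to 77565708) encodes the β2 chain shared by LFA-1 and the myeloid integrins. It was at 1036, 969 and 878 CPM in BALB/c (replicates 1 to 3) and at 979, 1009 and 1256 CPM in SKG, with SKG replicate 3 the highest and the remaining libraries intermixed. Its spread within a genotype, an SD of 0.16 on the log2 scale, was the smallest of the chains, and 3.75% of all tested genes had a smaller one. The log2 fold change of 0.17 ± 0.15 (SE, edgeR adjusted p = 0.991) had a 95% interval from -0.18 to 0.52, which in fold terms runs from 0.884 to 1.43. Without SKG replicate 3 the estimate was 0.06. The α chains other than Itgal that pair with β2 were close to absent, since Itgam had at most 8 reads, Itgax at most 15 and Itgad at most 21 in any library.

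In the VLA-4 pair, Itga4 (chromosome 2, 79255426 to 79333123) was at 36.6, 17.5 and 20.6 CPM in BALB/c and 33.3, 39.7 and 43.4 CPM in SKG, in the order of the replicates. BALB/c replicate 1 lay among the SKG libraries, and the other BALB/c libraries were under all of them. The means were 24.9 ± 10.3 (SD, n = 3) and 38.8 ± 5.11 (SD, n = 3), a log2 fold change of 0.64 ± 0.44 (SE), with a 95% interval from -0.43 to 1.70 and an edgeR adjusted p of 0.988. The estimate kept its sign with every library left out and ranged from 0.43 (without BALB/c replicate 2) to 1.03 (without BALB/c replicate 1). Of its 13978 exonic bases, 1124 also belong to exons of Cerkl on the opposite strand, where counting without strand cannot separate the genes.

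Itgb1 (chromosome 8, 128685654 to 128733200), the β chain of VLA-4 and of the laminin receptor, was at 346, 233 and 222 CPM in BALB/c and at 349, 242 and 164 CPM in SKG. SKG libraries were both the highest and the lowest of the 6. Its log2 fold change was -0.08 ± 0.32 (SE), with a 95% interval from -0.84 to 0.68 and an edgeR adjusted p of 0.994. The sign turned without BALB/c replicate 1 (0.15) or SKG replicate 3 (0.16), and the interval still allows a fold change between 0.557 and 1.6.

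Itga6 (chromosome 2, 71745616 to 71858416) encodes the α chain of the laminin receptor, also found on early thymocytes. It was read 2988, 1116 and 1901 times in BALB/c (replicates 1 to 3) and 4102, 2940 and 4365 times in the SKG replicates. In CPM the lowest SKG library, at 75.6, was just above the highest BALB/c library, at 72.4, so the groups were separate by a narrow margin. The means were 48.2 ± 21.8 CPM (SD, n = 3) in BALB/c and 99.4 ± 22.6 CPM (SD, n = 3) in SKG. Its log2 fold change was 1.04 (standard error 0.39, 95% interval 0.11 to 1.98), a fold change of 2.06 with an unadjusted p of 0.0336 and an adjusted p of 0.869 from edgeR's quasi-likelihood test, and it was higher in 3 of 3 SKG libraries. With 1 library left out the estimate ran from 0.79 (without BALB/c replicate 2) to 1.47 (without BALB/c replicate 1). Over all 15 alternatives the adjusted p lay between 0.302 and 1, and the gene was called in 0 of them. Transcripts of Itga6 end in alternative tails, and counts per gene do not separate these.

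Reads on marker genes of other cell types varied among the libraries beside this value. The summed level of 8 myeloid markers ran from 4.69 to 64.8 CPM in BALB/c and from 6.35 to 153 CPM in SKG. It was highest in SKG replicate 3 and next in BALB/c replicate 1, which are also the libraries of each genotype with the most Itga6. Most of the sum in these libraries was Lyz2 alone, at 107 CPM in SKG replicate 3 and 53.7 CPM in BALB/c replicate 1. Itgam, Itgax and Clec9a had 0 reads in both, and Csf1r had at most 3 reads anywhere. The 6 markers of double-positive thymocytes summed to between 85.5 and 249 CPM in BALB/c and between 99.5 and 265 CPM in SKG, again highest in the same libraries, although in SKG Rag1, Dntt and Ptcra were highest in replicate 2. SKG replicate 1, with 102 CPM of Itga6, had the lowest SKG sums of both lists (6.35 and 99.5 CPM). BALB/c replicate 2 had the least Itga6 (30.1 CPM) but larger sums (8.38 and 107 CPM) than BALB/c replicate 3 (4.69 and 85.5 CPM). Hemoglobin and other erythroid markers summed to 69.7 CPM in BALB/c replicate 1 and to at most 1.57 CPM elsewhere. The part of these cell types in the Itga6 difference was not tested.

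**Figure D3:**
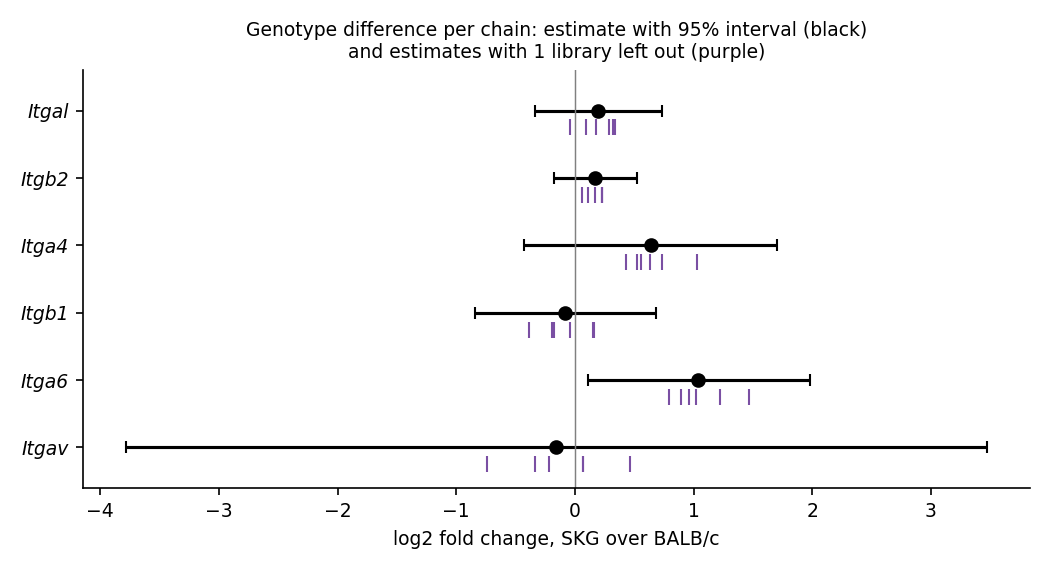
Log2 fold change of SKG over BALB/c for the 6 tested chains from edgeR, as a black point with its 95% interval, and below it in purple the estimates with each library left out. The interval of Itga6 lies above 0 (0.11 to 1.98), those of the other chains include 0, and that of Itgav spans -3.78 to 3.47.

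Itgav (chromosome 2, 83724397 to 83806916), the αV chain of the vitronectin receptors, was read 3 times in BALB/c replicate 1 but 2085 and 1897 times in the other BALB/c libraries. The SKG libraries had 1275, 769 and 1332 reads. The libraries of 1 genotype therefore differed far more than the genotypes, with 32.8 ± 29.2 CPM (SD, n = 3) in BALB/c and 29.4 ± 8.74 CPM (SD, n = 3) in SKG. The log2 fold change of -0.16 ± 1.51 (SE, edgeR adjusted p = 0.999) had no stable sign. It was -0.74 without BALB/c replicate 1, and 0.46, 0.07 and 0.07 without BALB/c replicate 2, BALB/c replicate 3 or SKG replicate 2. Without BALB/c replicate 1 every remaining BALB/c library, at 56.2 and 42.0 CPM, was above every SKG library, which reached at most 36.8 CPM. The edgeR fit without that library gave an unadjusted p of 0.144 for Itgav. How many of all genes separate with that library left out was not computed. Genes that reached 1000 reads in a BALB/c library but had at most 3 in another numbered 113 of 7554. The lowest library was BALB/c replicate 1 for 62 of these, replicate 2 for 49 and replicate 3 for 2. Ties were counted for the lower replicate number. In SKG there were 139 of 7427, of which 16 were lowest in replicate 1, 23 in replicate 2 and 100 in replicate 3. In addition, 634 exonic bases of Itgav are shared with the antisense transcript Gm13684.

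Itgae (chromosome 11, 73090583 to 73147446), the αE chain (CD103), was close to absent. The BALB/c libraries held 0, 1 and 0 of its reads and the SKG libraries 17, 43 and 0, and the gene did not pass the filter on low counts. A count of 0 allows up to 3 reads, or 0.0664 to 0.0830 CPM in these libraries, while the highest library reached 1.11 CPM. Summed over the libraries, the 60 SKG reads against 1 BALB/c read gave a ratio of 64.3 with a 95% interval from 11.1 to 2580 that covers counting error only. SKG replicate 3 was at 0 like BALB/c replicates 1 and 3, so the groups overlapped. Without a filter on low counts, edgeR gave an unadjusted p of 0.0931 and an adjusted p of 0.645.

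Ratios of α to β chain reads per kilobase within a library do not depend on the normalization between libraries. For LFA-1 the ratio of Itgal to Itgb2 was 0.339, 0.520 and 0.462 in BALB/c and 0.637, 0.418 and 0.317 in SKG. These ranges overlapped, with a difference of 0.02 in mean log2 ratio (two-sided exact permutation test, p = 1, adjusted p = 1 over 5 ratios) that became -0.16 without BALB/c replicate 1 and -0.25 without SKG replicate 1. The ratio of Itga4 to Itgb1 ran from 0.0220 to 0.0309 in BALB/c and from 0.0278 to 0.0772 in SKG, a log2 difference of 0.83 (exact permutation test, p = 0.2, adjusted p = 0.333). It was 0.47 without SKG replicate 3 and 1.20 without SKG replicate 1.

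Itga6 relative to Itgb1 was at 0.0946, 0.0584 and 0.0858 in BALB/c and at 0.132, 0.141 and 0.333 in SKG. All 3 SKG libraries were above all BALB/c libraries. The mean log2 ratio was 1.24 higher in SKG, with p = 0.1 in the two-sided exact permutation test, the smallest that this design can give, and an adjusted p of 0.333. Without SKG replicate 3 the difference was 0.81, and without SKG replicate 1 it was 1.47. Itgav relative to Itgb1 differed by 2.48 on the log2 scale (exact permutation test, p = 0.9, adjusted p = 1), which turned to -0.85 without BALB/c replicate 1 and was 4.23 without BALB/c replicate 2 and 4.06 without BALB/c replicate 3. The pair of Itgae and Itgb7 was not compared because Itgae was at 0 in some libraries. For α4β7, the gut-homing integrin, the ratio of Itga4 to Itgb7 was 0.137 to 0.288 in BALB/c and 0.273, 0.861 and 14.1 in SKG (log2 difference 2.88, exact permutation test, p = 0.2, adjusted p = 0.333). Without SKG replicate 3, which had 22 reads of Itgb7, this difference was 1.26, and it was 4.11 without SKG replicate 1.

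**Figure D4:**
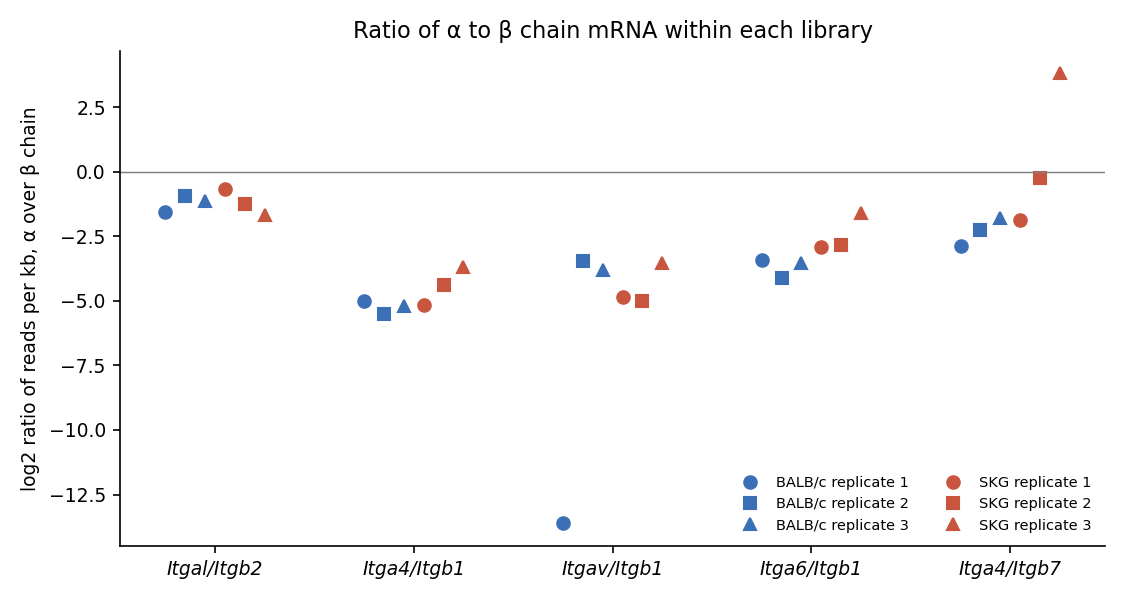
Log2 ratio of α over β chain reads per kilobase in each library for 5 known pairs, with blue symbols for BALB/c, red for SKG and a line at equal levels. The red symbols of Itga6/Itgb1 lie above the blue ones (log2 ratios of -2.92, -2.83 and -1.59 against -3.40, -4.10 and -3.54), whereas BALB/c replicate 1 falls to -13.61 for Itgav/Itgb1.

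Of the 20 other integrin chain genes, 5 passed the filter, and 0 of these were called or had an unadjusted p under 0.05. They differed more between libraries of a genotype than the LFA-1 chains. Itgb7, a partner of the α4 and αE chains, was read 2185, 615 and 641 times in the BALB/c libraries and 972, 355 and 22 times in those of SKG mice. Itga5, the α chain of the fibronectin receptor, was read 2031, 218 and 316 times in the BALB/c libraries and 819, 488 and 1 times in those of SKG mice. For both genes BALB/c replicate 1 was the highest library and SKG replicate 3 the lowest.

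Itgb3, which pairs with αV, was read 6, 245 and 1247 times in the BALB/c libraries and 1973, 3291 and 437 times in those of SKG mice, a log2 fold change of 2.08 ± 1.52 (SE, edgeR adjusted p = 0.990). It was thus lowest in BALB/c replicate 1, the library with 3 reads of Itgav. Itgb8, another αV partner that acts in the activation of TGF-β, was read 3278, 15 and 131 times in the BALB/c libraries and 4, 585 and 2 times in those of SKG mice. Itga3, a laminin receptor chain, was read 0, 1 and 47 times in the BALB/c libraries and 220, 401 and 0 times in those of SKG mice. Within-genotype SDs of these 5 genes were 2.04 to 3.89 on the log2 scale, beside 0.64 for the median tested gene and 0.16 to 0.51 for Itgb2, Itgal, Itga4, Itgb1 and Itga6.

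**Figure D5:**
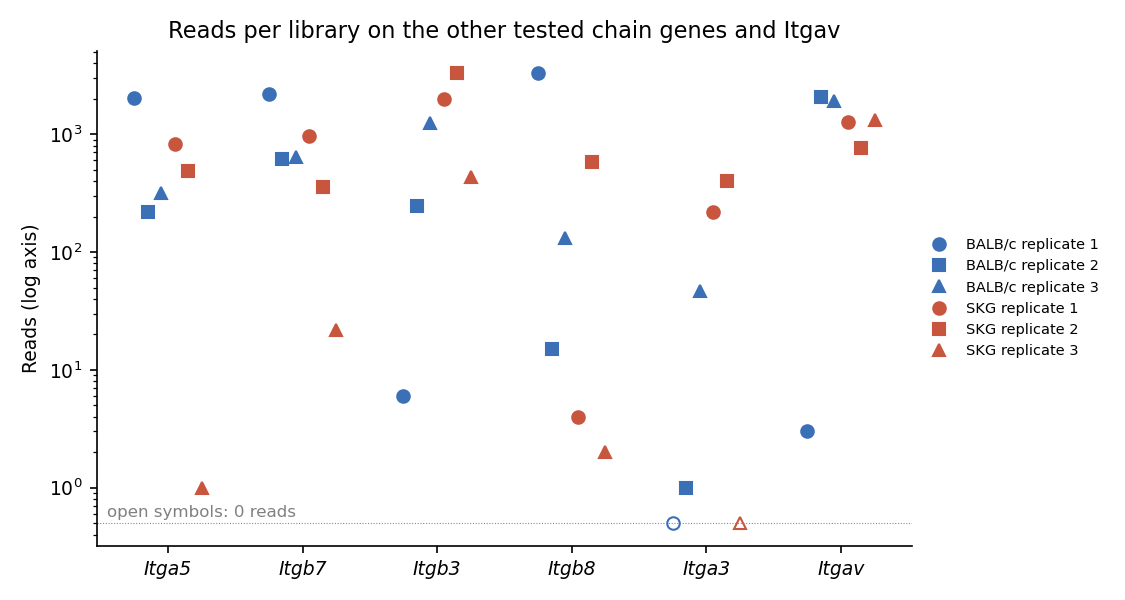
Reads per library on a log axis for the 5 other tested chain genes and Itgav, blue for BALB/c and red for SKG, with open symbols at the base for 0 reads. Each gene has a library with at most 22 reads and another with at least 401, and for each the genotypes overlap.

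Genes that work on integrins were read in the same fit, from lists written with earlier results of these data known. Of 27 inside-out activation genes 24 were tested, 0 were called, and 2 had an unadjusted p under 0.05, both higher in SKG, where 5.45% of all genes had such a p in either direction. Their log2 fold changes had a median of 0.23. Fyb, the ADAP adaptor that couples the TCR to integrins, was at 134, 151 and 131 CPM in BALB/c and at 189.6, 202 and 255 CPM in SKG (edgeR log2 fold change 0.64 ± 0.18 SE, adjusted p = 0.734). Its partner Skap1 was at 679 ± 42.6 CPM (SD, n = 3) in BALB/c and 794 ± 26.9 CPM (SD, n = 3) in SKG (log2 fold change 0.23, adjusted p = 0.953 from edgeR). Arap2, a GTPase-activating protein, was at 113 ± 18.4 and 187 ± 43.3 CPM (SD, n = 3 each, log2 fold change 0.72, adjusted p = 0.830 from edgeR). For these 3 genes, those with the lowest p in the list, every SKG library was above every BALB/c library, and 3 of the 24 tested genes were separate in this way, a share near the 13.9% of all genes whose libraries did not overlap.

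In the list of outside-in signaling and adhesion complex genes, 25 of 30 were tested, 0 were called and 0 had an unadjusted p under 0.05, with a median log2 fold change of 0.01. The lowest p belonged to Actn4, an actin crosslinker, at 368 ± 40.0 CPM (SD, n = 3) in BALB/c and 488 ± 111 CPM (SD, n = 3) in SKG (edgeR, adjusted p = 0.952). Next came Nedd9, a docking protein, with a log2 fold change of -0.50 (edgeR, adjusted p = 0.953). Of 22 ligands and counter-receptors 8 were tested and 0 had an unadjusted p under 0.05 (median log2 fold change -0.25). Lamc1, a laminin chain, was read 1, 2 and 411 times in the BALB/c libraries and 965, 661 and 920 times in those of SKG mice, Icam1 ran from 331 to 2234 reads, and Fn1 had at most 62 reads. Lamc1 was the 1 ligand whose SKG libraries were all above the BALB/c libraries, 1 of 8 tested where 13.9% of all genes did not overlap (edgeR, adjusted p = 0.988).

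Among 13 integrin-associated membrane proteins 12 were tested, 0 were called, and 1 had an unadjusted p under 0.05, against 5.45% of all genes (median log2 fold change 0.04). This was Bsg, an immunoglobulin-family protein, at 299, 279.9 and 266 CPM in BALB/c and 177, 234 and 182 CPM in SKG, with every SKG library under every BALB/c library, as 13.9% of all genes were separate in either direction (edgeR log2 fold change -0.51 ± 0.16 SE, adjusted p = 0.830). Cd82, a tetraspanin, was at 252 ± 21.9 CPM (SD, n = 3) in BALB/c and 189.5 ± 43.2 CPM (SD, n = 3) in SKG, with overlapping libraries. Cd44, the hyaluronan receptor that the sort selected against, had 4 to 536 reads.

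The genes whose log2 CPM followed a chain most closely over the 6 libraries were Usp10 for Itgal (Pearson r = 0.993), Hn1 for Itgb2 (0.993), Serpine3 for Itga4 (0.983), Gm17066 for Itgb1 (0.987), Bloc1s6 for Itga6 (0.995) and Tfcp2 for Itgav (0.997). With 6 points, an r above 0.95 was also reached by between 14 and 28 genes for the first 5 of these chains and by 260 for Itgav. BALB/c replicate 1 had 3 reads of Itgav against 769 to 2085 elsewhere, so the r values of Itgav rest mainly on that library. All r values given here describe the 6 libraries, which share 2 genotypes and their depths.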

How the data were processed

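RNA-Seq of 6 pooled-mouse libraries (3 BALB/c, 3 SKG, 50 nt single-end reads) was analyzed. The authors aligned reads with HISAT2 2.1.0 to GRCm38 and counted those over exons per gene with featureCounts (Subread 1.4.4), unstranded and above a mapping quality minimum, and deposited raw counts without normalization. The paper and the sample labels name different amplification kits. A second deposited table holds the authors' DESeq2 comparison (means, fold changes, standard errors, statistics, p-values) and was not used. The integrin members and all gene lists were chosen with earlier results of these data known.

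In R 4.3.3, genes were filtered with filterByExpr, normalized with TMM and tested across all 12312 remaining genes with the quasi-likelihood F test of edgeR 4.0.16 and Benjamini-Hochberg adjustment, with the FDR of 0.1 and fold change of 1.5 that the study applied. Standard errors are the absolute log2 fold change over the square root of F. Alternatives were DESeq2 1.42.0, limma-voom (limma 3.58.1), other scaling and filters, replicate blocks and each library left out. Sums and ratios were compared with exact permutation tests. Fits were tested on simulated data, where a pass was required of edgeR alone and at a smaller spread than is typical of these libraries. Named list genes are the 3 with the lowest p in each list. Of these, 1 is not reported here. Other named genes were chosen after their values were seen. Lengths and positions are from GENCODE M21 (GRCm38), and the transcripts shown are the principal ones. Residuals of libraries with the same number correlated between -0.145 and 0.00289, so libraries were not paired. With counts from a small cell input, intervals from reads cover counting error only.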

Additional observations from a re-analysis of the deposited data

How the results depend on the processing

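Of the 7 integrin chains 0 were called in the main analysis and under every alternative run. Over all genes, edgeR called 0 (671 at an unadjusted p under 0.05), limma-voom 0, DESeq2 370 without and 231 with shrunken fold changes, edgeR 2 without a filter on low counts and 1 with at least 10 reads in every library. With the replicate number of the titles as a block the count was 0, and the log2 fold change was 1.12 for Itga6 and 0.79 for Itgav. Of 89 recomputed fold changes of single chains 79 kept their direction. The sign of Itgav turned under limma-voom (2.29), under this replicate block and under the library number replicate block (3.42), and that of Itgal under the latter (-0.04). Library numbers are those in the column names of the count table, and only numbers 2 and 3 occur in both genotypes. That block therefore compares BALB/c replicates 1 and 2 with SKG replicates 2 and 3 alone. With 1 library left out the ranges were -0.39 to 0.16 for Itgb1, -0.04 to 0.34 for Itgal and -0.74 to 0.46 for Itgav, and for the ratios -0.25 to 0.25 (Itgal/Itgb2) and -0.85 to 4.23 (Itgav/Itgb1). The cause of these turns was not tested. Itgav could not be fitted with at least 10 reads in every library. Without BALB/c replicate 2, BALB/c replicate 3, SKG replicate 1, or with the library number block, no chain had an unadjusted p under 0.05, and without SKG replicate 3 it was Itgae and not Itga6. The coding length, tried after seeing the data, is shorter than the exon length for every chain and so raised every level per kilobase. For 6 of 7 chains the rise exceeded the SD over libraries. The order of the mean levels changed only between Itgav and Itga4. An interval that includes 0 allows no difference as well as every difference inside it. The smallest difference that 3 libraries per genotype could detect was not tested.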
